A study of Homo sapiens with 4 samples.

Results

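The genes described here are the cytochromes P450 (CYP) and 3 families of conjugation enzymes: the UDP-glycosyltransferases (UGT), the glutathione S-transferases (GST) and the sulfotransferases (SULT). They were taken by gene symbol and protein-coding biotype from a table of 55536 genes, leaving out CYP51A1 and CYP26B1, which gave 104 genes. Of these, 31 had 40 or more reads over the 4 libraries and are described by family, and 73 had fewer. RNA came from HaCaT, an established and spontaneously immortalised line of human keratinocytes. The 2 TYMP libraries came from HaCaT cells given a lentivirus for stable TYMP overexpression (TYMP encodes thymidine phosphorylase), and the other 2 from HaCaT cells labelled NC. Cells were harvested after 48 h. The labels do not spell out NC and do not describe its vector, nor the promoter that drives TYMP. Nothing in them tells whether each library had its own culture, so the spread behind every p-value may be a technical one.

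Cytochromes P450 are haem enzymes that insert an oxygen atom into fatty acids, steroids, vitamins and foreign compounds. Their electrons come from NADPH, through the reductase POR for many of these enzymes but not for all. UGT, GST and SULT enzymes then attach a sugar, glutathione or sulfate, which makes the product easier to dissolve and export. Keratinocytes use several of these enzymes for their own lipids and hormones: they make and break down active vitamin D, clear retinoic acid and build the lipids of the skin barrier. The aryl hydrocarbon receptor, AHR, is the best known inducer of the CYP1 genes in skin.

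Library totals lay between 16209663 and 17000821 reads. TYMP had 1221 and 1100 reads in the TYMP libraries, against 281 and 264 in the NC libraries. All 10 listed keratinocyte markers were detected. Their summed level was 10778 and 10157 CPM in the TYMP libraries and 8513 and 7739 CPM in the NC libraries. Of the 10, 5 were called higher (KRT1, KRT5, KRT10, KRT14 and DSG3) and 0 lower, beside 2.09% of all tested genes called higher. KRT1 rose most of the 10, 5.05-fold. It had 60.8 and 55.0 CPM in the TYMP libraries, against 11.7 and 11.2 CPM in the NC libraries. Of 8 hepatocyte markers, 7 were at 0 in every library, ALB among them. Fibroblast markers summed to 8.88 and 6.54 CPM in the TYMP libraries and 5.30 and 4.29 CPM in the NC libraries, with COL3A1 and PDGFRA at 0. Nearly all of this sum was COL1A1, with 8.57 and 6.07 CPM in the TYMP libraries. In the NC libraries COL1A1 had 5.12 and 4.29 CPM, and it was not called. Whether the keratinocyte or fibroblast markers play a part in the results below was not tested. In bulk RNA, a change in the number of cells that express a gene and a change in its RNA per cell cannot be told apart.

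Per gene length, in FPKM (reads scaled by gene length and library size), the conjugation enzyme GSTP1 stood far above every other member. GSTP1, the pi-class transferase of epithelia, had 356 and 317 FPKM in the TYMP libraries and 308 and 302 FPKM in the NC libraries. It made up between 63.1% and 66.6% of the summed FPKM of all 104 genes. The omega-class transferase GSTO1 came next, with 44.8 and 43.5 FPKM in the TYMP libraries and 48.4 and 42.9 FPKM in the NC libraries. The order of the P450 genes at the top differed between the groups. CYP1B1 had 31.0 and 36.2 FPKM in the TYMP libraries, above CYP24A1 with 19.3 and 20.5 FPKM. In the NC libraries CYP1B1 had 18.9 and 22.5 FPKM, below CYP24A1 with 35.2 and 36.6 FPKM. The ranges of the 2 genes did not overlap within either group. GSTK1 followed at a mean of 20.3 FPKM over the 4 libraries, UGT8 at 12.7, CYP2S1 at 9.76 and CYP27B1 at 5.87. Neighbours in this order often overlapped: GSTO2 (3.96 to 4.61 FPKM) and CYP27C1 (3.37 to 4.11 FPKM) did, for example. In all, 17 of the 104 genes reached a mean of 1 FPKM.

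**Figure D1:**
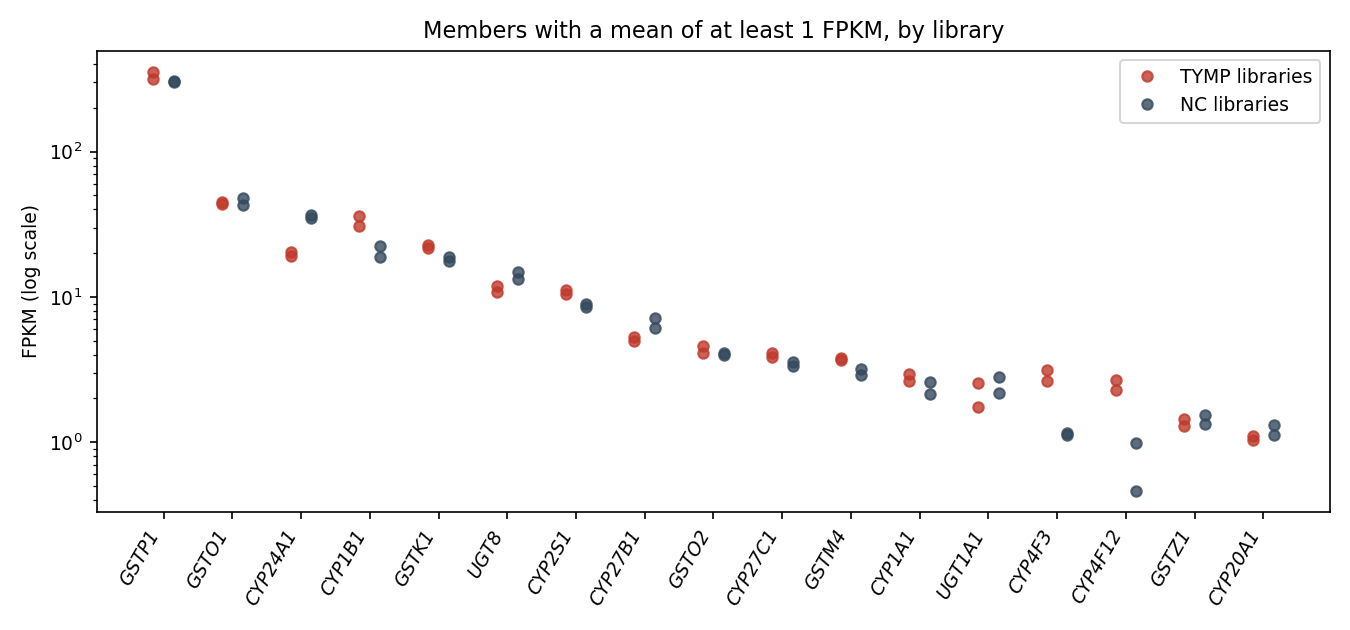
FPKM of the 17 members with a mean of at least 1 FPKM, in each of the 2 TYMP libraries (red, left) and the 2 NC libraries (dark, right), on a log axis. GSTP1 lies above 300 FPKM in all 4 libraries, and CYP24A1 and CYP1B1 change places between the groups.

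All 31 genes with 40 or more reads passed the filter on low counts, and none of the other 73 did. In the quasi-likelihood test of edgeR over 14380 genes, with Benjamini-Hochberg adjusted p under 0.05 as the threshold, 4 of the 31 were called. CYP4F12, CYP4F3 and CYP1B1 rose and CYP24A1 fell, all of them P450 genes. That is 12.9% of the 31 genes, beside 3.32% of all tested genes. By direction, 9.68% were called higher, beside 2.09% of all tested genes, and 3.23% lower, beside 1.23%. The 31 passed a filter that depends on their own reads and were chosen with earlier results known, so the comparison of shares is a description. At an unadjusted p under 0.05 there were 12 genes (38.7%, beside 14.7% of all tested genes), 9 higher and 3 lower. Both TYMP libraries lay above both NC libraries for 12 genes (38.7%, beside 21.8% of all tested genes). They lay below both for 6 (19.4%, beside 21.8%). Together that is 58.1%, beside 43.6% of all tested genes. The median log2 fold change of the 31 genes was 0.15, beside -0.01 over all tested genes, and it was 0.01 without TYMP replicate 2 and 0.07 without NC replicate 2. Single genes also depended on the NC library kept. Without NC replicate 1, the log2 fold change was 1.99 for CYP4B1, -0.40 for UGT8 and -0.26 for CYP27B1. Without NC replicate 2, it was 0.54, -0.26 and -0.52, in that order.

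**Figure D2:**
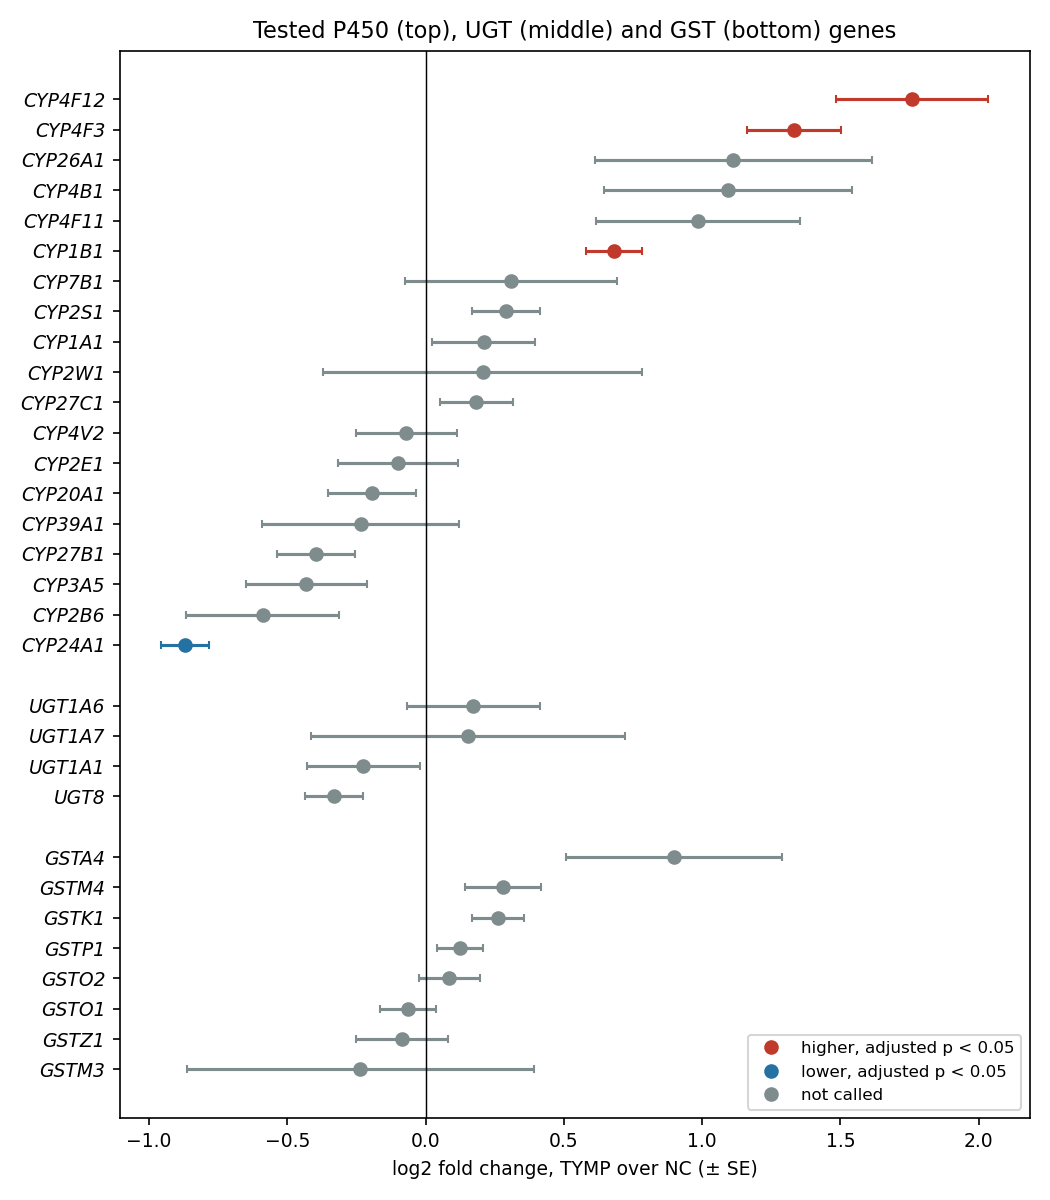
Log2 fold change of TYMP over NC with its standard error for the 31 tested genes, by family and then by size. The 4 called genes are coloured: CYP4F12, CYP4F3 and CYP1B1 to the right of 0 and CYP24A1 to the left, while every UGT and GST gene is grey.

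The largest rises were those of CYP4F12 and CYP4F3. CYP4F enzymes oxidise the far end of fatty acid chains. The CYP4F genes lie together on chromosome 19, within 426 kb. CYP4F3, which inactivates leukotriene B4, is at chr19:15640897-15662825 (GRCh38, plus strand). It had 14.6 and 17.1 CPM (counts scaled to library size with TMM factors) in the TYMP libraries, against 6.43 and 6.16 CPM in the NC libraries. Both TYMP libraries were far above both NC libraries. The rise was 2.52-fold, with a log2 fold change of 1.33 ± 0.171 SE (edgeR adjusted p = 0.000781). CYP4F12, which oxidises arachidonic acid and some antihistamines, lies downstream on the same strand, at chr19:15672757-15697174. It had 11.7 and 13.4 CPM in the TYMP libraries, against 5.06 and 2.35 CPM in the NC libraries, so the groups did not overlap although the NC libraries differed from each other. The log2 fold change was 1.76 ± 0.276 SE (edgeR adjusted p = 0.00282). It was 2.42 without NC replicate 1 and 1.31 without NC replicate 2, and the gene was called in both cases. CYP4F11, which acts on long-chain fatty acids and vitamin K, is at chr19:15912367-15934867 (minus strand). It had 31 and 40 reads in the TYMP libraries, against 19 and 17 in the NC libraries. The groups did not overlap, but the log2 fold change (0.98 ± 0.368, SE) did not pass the threshold (edgeR adjusted p = 0.21). The remaining genes of the cluster were nearly empty: CYP4F2 had 10 reads over the 4 libraries, CYP4F8 had 3, and CYP4F22, which makes the acylceramide lipids of the skin barrier, had 1.

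**Figure D3:**
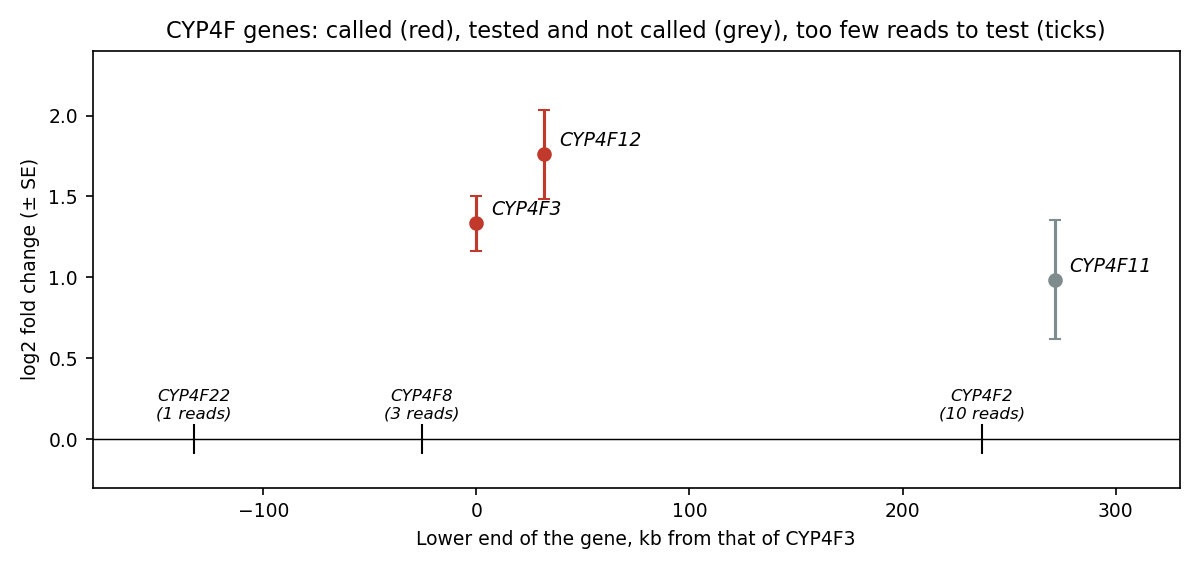
Log2 fold change of TYMP over NC with its standard error for the 6 CYP4F genes, against the distance in kb of each gene's lower end from that of CYP4F3. CYP4F3 and CYP4F12 (red) passed the threshold, CYP4F11 (grey) did not, and ticks mark CYP4F22, CYP4F8 and CYP4F2, which had too few reads to test.

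CYP4F genes are close copies, so it was checked how much of each could be confused with another gene. Of all stretches of 50 bases in the annotated transcripts of CYP4F3, 8.80% also occur in another gene, mostly in CYP4F2 (7.09%). For CYP4F12 the share was 1.97%, mostly with the pseudogene CYP4F24P, and for CYP4F11 it was 0.786%. CYP4F24P had 0 and 1 reads in the TYMP libraries and 0 and 0 in the NC libraries. The sources used here do not tell how reads with several matches were counted.

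The promoters of CYP4F3 and CYP4F11 are shown because these genes of 1 cluster share sequence before their RefSeq starts. Each window runs from 250 bases before to 50 after the start, from RefSeq on GRCh38.p14, at chr19:15641062-15641361 on the plus strand and chr19:15934480-15934779 on the minus strand. These RefSeq starts lie 415 bases (CYP4F3) and 338 bases (CYP4F11) downstream of the GENCODE gene starts behind the coordinates above, so both windows lie inside the annotated genes. Of the 31 genes, 26 had an entry in the promoter table used here. Those without an entry are CYP1B1, CYP24A1, CYP27B1, CYP4F12 and CYP7B1. The capitals mark the 2 longest runs of identical bases, both of 19 bases.
CYP4F3: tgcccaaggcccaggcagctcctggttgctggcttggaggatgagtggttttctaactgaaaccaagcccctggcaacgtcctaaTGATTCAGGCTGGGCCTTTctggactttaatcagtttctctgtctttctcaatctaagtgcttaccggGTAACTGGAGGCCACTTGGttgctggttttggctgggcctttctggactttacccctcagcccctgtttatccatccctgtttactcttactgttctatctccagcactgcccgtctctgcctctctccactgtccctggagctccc
CYP4F11: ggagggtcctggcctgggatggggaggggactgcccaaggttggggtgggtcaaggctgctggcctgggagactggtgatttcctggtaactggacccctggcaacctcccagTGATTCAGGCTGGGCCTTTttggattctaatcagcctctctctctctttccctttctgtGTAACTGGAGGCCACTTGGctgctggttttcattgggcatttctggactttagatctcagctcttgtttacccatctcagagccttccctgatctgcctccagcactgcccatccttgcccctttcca
In a local alignment, 205 of 284 columns were identical (72.2%). The runs TGATTCAGGCTGGGCCTTT and GTAACTGGAGGCCACTTGG were each searched on both strands of all 35116 promoter windows in the table, and each occurs in these 2 alone (0.00570%). CYP4F11 has a second annotated start, whose window matched that of CYP4F3 over only 21 columns. A shared run is a description of these copies, not a site.

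CYP1B1, which hydroxylates oestradiol and activates aromatic hydrocarbons, rose. The gene is at chr2:38066973-38109902 (GRCh38, minus strand). Its level was 188 and 215 CPM in the TYMP libraries, against 115 and 136 CPM in the NC libraries, without overlap. The log2 fold change was 0.68 ± 0.101 SE (edgeR adjusted p = 0.00193). Exons of other genes overlap 13.0% of its exon bases, among them the antisense gene CYP1B1-AS1, which had 22 and 16 reads in the TYMP libraries and 22 and 13 in the NC libraries. CYP1A1, the classical AHR target, had 9.93 and 8.72 CPM in the TYMP libraries and 8.87 and 7.25 CPM in the NC libraries. The groups overlapped, and the log2 fold change (0.21 ± 0.187, SE) was not called (edgeR adjusted p = 0.683). CYP1A2 was nearly without reads. AHR itself had 56.0 and 75.2 CPM in the TYMP libraries and 45.9 and 80.7 CPM in the NC libraries, so that its libraries differed more within a group than between groups. Its partner ARNT had 56.6 and 58.1 CPM in the TYMP libraries and 54.2 and 51.6 CPM in the NC libraries, and was not called. TIPARP, an AHR target that feeds back on the receptor, had 130.2 and 132.7 CPM in the TYMP libraries, below 145 and 154 CPM in the NC libraries, and was not called (edgeR adjusted p = 0.318). The AHR repressor AHRR had 1 and 2 reads in the TYMP libraries and 4 and 4 in the NC libraries, too few to test.

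The promoter of CYP1A1, at chr15:74725479-74725778 on the minus strand of GRCh38.p14, is shown for the core of the element that AHR binds, GCGTG, marked in capitals. Its RefSeq start lies 82 bases downstream of the GENCODE start.
CYP1A1: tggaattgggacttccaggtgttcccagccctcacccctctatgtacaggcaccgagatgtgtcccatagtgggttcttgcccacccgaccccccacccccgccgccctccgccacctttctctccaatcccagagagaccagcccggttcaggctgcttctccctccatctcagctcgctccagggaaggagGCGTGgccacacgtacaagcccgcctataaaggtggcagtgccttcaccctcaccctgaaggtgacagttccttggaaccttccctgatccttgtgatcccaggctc
GCGTG, searched on both strands, occurs in any window of 12 of the 26 genes with an entry (46.2%) and in 36.5% of all windows in the table. The first share counts genes, which can have several windows, and the second counts single windows. The shares are therefore not like for like. GCGTG is a short motif, and a match is a description, not a site.

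CYP24A1, the enzyme that breaks down active vitamin D, fell. The gene is at chr20:54153449-54173973 (GRCh38, minus strand), and none of its stretches of 50 bases occurs in another annotated gene. It had 77.3 and 80.6 CPM in the TYMP libraries, against 142 and 147 CPM in the NC libraries. The libraries of a group lay close together and the groups were far apart. CYP24A1 was 1.83-fold lower (NC over TYMP), at log2 fold change -0.87 ± 0.0861 SE (edgeR adjusted p = 0.000106). CYP27B1, which makes active vitamin D, had 16.3 and 17.0 CPM in the TYMP libraries, below 23.9 and 20.0 CPM in the NC libraries. Its log2 fold change (-0.40 ± 0.141, SE) was not called (edgeR adjusted p = 0.187), but it was without NC replicate 2 (log2 fold change -0.52, edgeR adjusted p = 0.0445). Without NC replicate 1 it was -0.26 (edgeR adjusted p = 0.531). The vitamin D receptor VDR had 66.0 and 65.8 CPM in the TYMP libraries and 70.4 and 68.0 CPM in the NC libraries, a log2 fold change of -0.07 that was not called. CYP2R1 and CYP27A1, which can carry out the first step of vitamin D activation, had 23 and 7 reads over the 4 libraries. CYP27C1, which desaturates retinoids, had 20.0 and 21.1 CPM in the TYMP libraries and 17.7 and 18.5 CPM in the NC libraries, and was not called (edgeR adjusted p = 0.595).

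**Figure D4:**
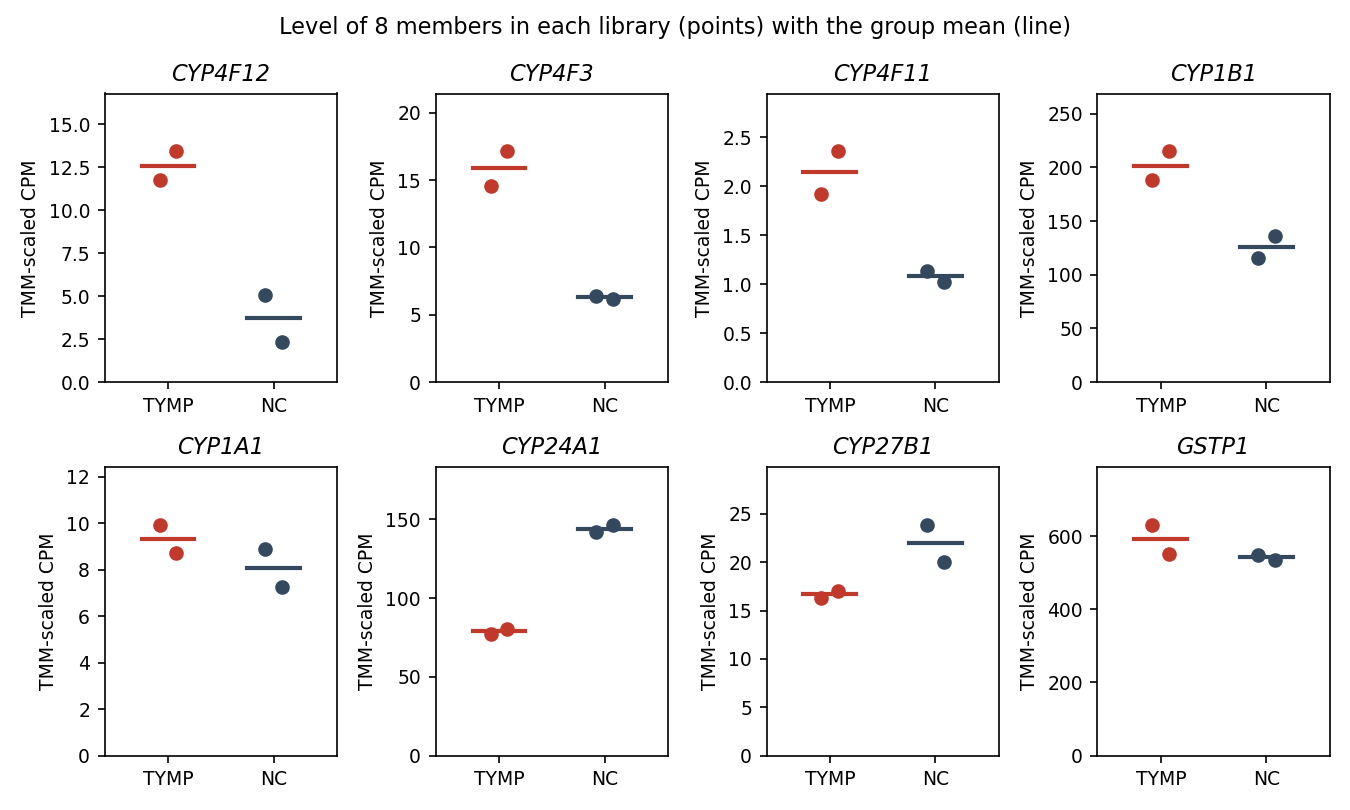
TMM-scaled CPM of 8 members in each library (points) with the group mean (line), TYMP left and NC right, each axis from 0. CYP4F12, CYP4F3 and CYP1B1 are higher and CYP24A1 is lower in both TYMP libraries, while the points of CYP1A1 overlap between the groups.

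The other P450 genes did not pass the threshold. CYP2S1, an enzyme of surface epithelia, had 30.5 and 27.8 CPM in the TYMP libraries, above 24.5 and 23.2 CPM in the NC libraries (log2 fold change 0.29, edgeR adjusted p = 0.287). Among genes with few reads, CYP26A1, which breaks down retinoic acid, had 16 and 23 reads in the TYMP libraries, against 8 and 10 in the NC libraries (log2 fold change 1.11, edgeR adjusted p = 0.324). An annotated gene on the same strand overlaps 25.2% of its exon bases. CYP4B1, a fatty acid oxidase, had 39 and 33 reads in the TYMP libraries, against 25 and 9 in the NC libraries. Its log2 fold change of 1.09 was not called (edgeR adjusted p = 0.263), but it was without NC replicate 1 (log2 fold change 1.99, edgeR adjusted p = 0.0216). Without NC replicate 2 it was 0.54 (edgeR adjusted p = 0.662), so its size depends on which NC library is kept. The drug-oxidising enzymes CYP3A5 and CYP2B6 lay below in both TYMP libraries. CYP3A5 had 67 and 81 reads in the TYMP libraries, against 100 and 101 in the NC libraries (log2 fold change -0.43, edgeR adjusted p = 0.399). CYP2B6 had 39 and 38 reads in the TYMP libraries, against 60 and 57 in the NC libraries (log2 fold change -0.59, edgeR adjusted p = 0.352). CYP20A1, whose substrate is not settled, had 178 and 196 reads in the TYMP libraries, below 201 and 230 reads in the NC libraries, and was not called. For CYP2E1, CYP4V2, CYP39A1, CYP7B1 and CYP2W1 the groups overlapped. CYP39A1, which acts on oxysterols, had 48 and 35 reads in the TYMP libraries and 66 and 33 in the NC libraries. CYP2W1, with 43 reads in all, is the member nearest above 40 reads. CYP2U1 and SULT1A3, with 26 each, are nearest below.

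No GST gene was called by edgeR, nor by DESeq2. At an unadjusted p under 0.05 in edgeR, 2 of the 8 tested were higher and 0 lower. Over all tested genes, 14.7% passed in either direction. GSTP1 had 631 and 552 CPM in the TYMP libraries, above 550 and 535 CPM in the NC libraries, with a log2 fold change of 0.12 ± 0.0833 SE (edgeR adjusted p = 0.557). Its lower TYMP library was barely above its higher NC library. GSTK1, the transferase of mitochondria and peroxisomes, had 96.1 and 90.4 CPM in the TYMP libraries, above 80.4 and 75.1 CPM in the NC libraries (log2 fold change 0.26, edgeR adjusted p = 0.186). GSTM4, of the mu class, had 19.8 and 20.1 CPM in the TYMP libraries, above 17.3 and 15.6 CPM in the NC libraries (log2 fold change 0.28, edgeR adjusted p = 0.376). It shares 16.9% of its stretches of 50 bases with other genes, GSTM2 and GSTM1 first, so its counts are uncertain. GSTA4, which detoxifies products of lipid peroxidation, had 54 and 29 reads in the TYMP libraries and 21 and 24 in the NC libraries. TYMP replicate 1 was high and the other 3 libraries lay close together, and the gene was not called (log2 fold change 0.90, edgeR adjusted p = 0.302). GSTO1 and GSTO2, which reduce dehydroascorbate, and GSTZ1, an enzyme of tyrosine breakdown, overlapped between the groups. Their log2 fold changes were -0.06, 0.09 and -0.09. GSTM3 had 4 and 24 reads in the TYMP libraries and 14 and 19 in the NC libraries.

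The promoter of GSTP1, the member with the highest level, is shown at chr11:67583562-67583861 on the plus strand of GRCh38.p14. Its RefSeq start lies 217 bases downstream of the GENCODE start. The capitals mark TGACNNNGC, the core of the antioxidant response element that the regulator NFE2L2 binds.
GSTP1: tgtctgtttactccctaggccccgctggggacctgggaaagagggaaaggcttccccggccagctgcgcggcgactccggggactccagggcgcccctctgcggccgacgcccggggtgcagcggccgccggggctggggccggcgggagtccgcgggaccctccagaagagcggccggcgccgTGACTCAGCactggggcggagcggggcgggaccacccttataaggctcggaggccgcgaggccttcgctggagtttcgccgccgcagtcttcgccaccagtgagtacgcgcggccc
TGACNNNGC, searched on both strands, occurs in any window of 7 of the 26 genes with an entry (26.9%), and in 13.3% of all windows in the table. The 7 are CYP2B6, CYP4F11, CYP4V2, GSTA4, GSTO1, GSTP1 and UGT1A6. As with GCGTG, these shares count genes and single windows, so they are not like for like. A match is a description, not a site. NFE2L2 had 155 and 164 CPM in the TYMP libraries and 154 and 172 CPM in the NC libraries, and was not called.

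No UGT gene was called by edgeR, nor by DESeq2. Over all tested genes, 14.7% had an unadjusted p under 0.05 in edgeR, in either direction. Of the 4 tested UGT genes, 1 was lower and 0 higher at that threshold. That gene was UGT8, which makes galactosylceramide and had the highest level of the family. UGT8 had 47.9 and 51.1 CPM in the TYMP libraries, below 59.2 and 65.2 CPM in the NC libraries. Its log2 fold change (-0.33 ± 0.105, SE) was not called (edgeR adjusted p = 0.135), but it was without NC replicate 1 (log2 fold change -0.40, edgeR adjusted p = 0.0456). Without NC replicate 2 it was -0.26 (edgeR adjusted p = 0.308), and without TYMP replicate 1 it was -0.28 (edgeR adjusted p = 0.603). The UGT1A genes have their own first exons and share the rest on chromosome 2, so their counts are uncertain: 49.5% of the stretches of 50 bases of UGT1A1 occur in another gene, 59.9% of those of UGT1A6 and 40.9% of those of UGT1A7. UGT1A1, which conjugates bilirubin, had 126 and 190 reads in the TYMP libraries and 164 and 207 in the NC libraries. UGT1A6, which conjugates small phenols, had 81 and 73 reads in the TYMP libraries and 75 and 63 in the NC libraries. UGT1A7 had 7 and 23 reads in the TYMP libraries and 12 and 15 in the NC libraries. The groups overlapped for all 3, and none was called. Of the UGT2 genes, UGT2B7 had 1 read and the others had none.

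The sulfotransferases were close to undetected. None of the 13 SULT genes reached 40 reads, and together they had 68 reads over the 4 libraries. SULT1A3 led by reads, with 12 and 7 in the TYMP libraries and 3 and 4 in the NC libraries. SULT1E1 led by mean FPKM, at 0.159 against 0.154 for SULT1A3. It had 5 and 5 reads in the TYMP libraries and 2 and 10 in the NC libraries. SULT1A3 shares 81.4% of its stretches of 50 bases with other genes, mainly its copy SULT1A4, which had 1 read. SULT2B1, which makes cholesterol sulfate in the epidermis, had 1 and 4 reads in the TYMP libraries and 6 and 3 in the NC libraries. Over all 4 families, 33 genes had between 1 and 39 reads and 40 had no read. The 40 include 14 P450 genes, among them the steroid-making enzymes CYP11A1, CYP17A1 and CYP19A1. A count of 0 allows up to 3 reads, which is between 0.177 and 0.186 CPM in these libraries and covers counting error only. Of the 104 genes, 8 have further annotated copies on alternate sequences of the assembly, among them CYP2D6, CYP21A2 and GSTT2, and none of the 31 is. How reads of such copies were counted is not stated, and low counts do not show that these genes were not expressed.

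The genes that supply, regulate or reverse these reactions were mostly not called. Of 69 listed partner genes, 51 could be tested, of which 2 rose, 0 fell and 49 were not called. That is 3.92%, beside 3.32% of all tested genes, and the median log2 fold change was 0.04. At an unadjusted p under 0.05 in edgeR, 6 of the 51 were higher and 1 lower, where 14.7% of all tested genes passed in either direction. DESeq2 called 2 of the 51 higher and 0 lower, beside 275 higher and 181 lower of all 14380 tested genes. These counts are a description. EPHX2, the soluble epoxide hydrolase that opens the fatty acid epoxides made by some P450 enzymes, rose. It had 9.81 and 9.37 CPM in the TYMP libraries, against 5.12 and 5.49 CPM in the NC libraries, 1.81-fold higher (log2 fold change 0.85 ± 0.191 SE, edgeR adjusted p = 0.0265). It was not called without TYMP replicate 1 (edgeR adjusted p = 0.0773) or by DESeq2 (adjusted p = 0.0536). ARSA, a lysosomal enzyme that removes sulfate from galactosylceramide sulfate, had 14.6 and 13.4 CPM in the TYMP libraries, against 8.51 and 7.85 CPM in the NC libraries (log2 fold change 0.78, edgeR adjusted p = 0.0198). ARSA was not called without TYMP replicate 1 (edgeR adjusted p = 0.0903). RXRA, the shared partner of VDR and other nuclear receptors, had 374 and 321 CPM in the TYMP libraries, above 286 and 258 CPM in the NC libraries. It was called by DESeq2 but not by edgeR (log2 fold change 0.35, adjusted p = 0.0591). Of the 7 tested electron donors none was called by edgeR or DESeq2, and 0 had an unadjusted p under 0.05. POR had 30.1 and 24.6 CPM in the TYMP libraries and 31.5 and 23.8 CPM in the NC libraries. None of the 10 genes of cofactor supply was called, with log2 fold changes between -0.04 and 0.23, and 0 had an unadjusted p under 0.05.

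**Figure D5:**
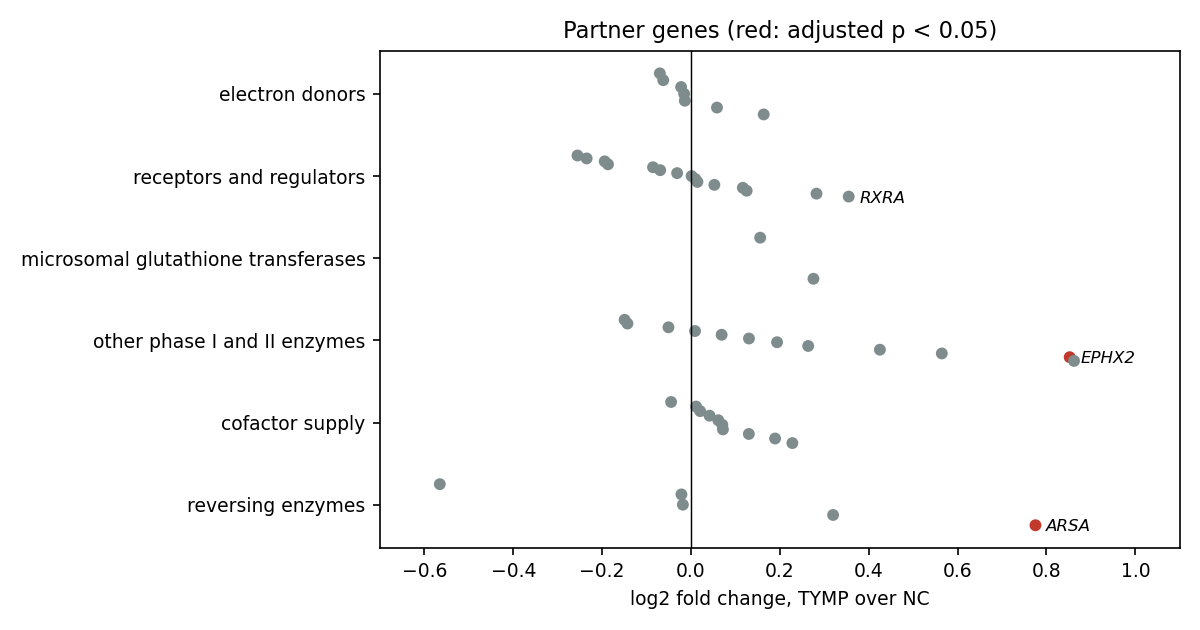
Log2 fold change of TYMP over NC for the 51 tested partner genes in 6 groups. EPHX2 and ARSA (red) passed the threshold, RXRA is the highest of the receptors and regulators, and the electron donors lie between -0.07 and 0.16.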

How the data were processed

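The deposited table held raw read counts and FPKM per gene for 2 TYMP and 2 NC libraries, per the file headers. HISAT2, HTSeq 0.13.5 and GRCh38 are named in the submitters' processing notes. The sources used here state neither their roles nor the annotation, strand option or handling of reads matching several places. The authors' FPKM served only to compare levels between genes.

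The counts were fitted over all genes with edgeR 4.0.16 in R 4.3.3 (filterByExpr with a minimum count of 10, TMM scaling, robust quasi-likelihood F test, group as the only term), with Benjamini-Hochberg adjustment over the 14380 tested genes. Standard errors are the log2 fold change divided by the square root of F. CPM was computed from the deposited counts with TMM-scaled library sizes. An exact permutation of 2 against 2 libraries cannot go below p = 0.333. Between libraries of a group, chi-square per degree of freedom was 5.84 for TYMP and 7.39 for NC, so the libraries were not duplicates.

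Annotation came from GENCODE 29 (102 of the 104 genes matched by identifier) and promoters from RefSeq. Values are given by library for genes that were called, had an unadjusted p under 0.05 or led by FPKM, and named partner genes were the called ones and a few regulators. CYP3A5, CYP2B6, CYP39A1, GSTM3, UGT1A6, UGT1A7, CYP2R1, CYP27A1, SULT1A4, SULT2B1, VDR, RXRA and the genes named for low counts were added after their values were seen. The members and lists were chosen with earlier results of these data known. Alternatives were DESeq2 1.42.0, other scalings and filters, the replicate number as a block, and each library left out.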

Additional observations from a re-analysis of the deposited data

How the results depend on the processing

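The calls of CYP4F12, CYP4F3, CYP1B1 and CYP24A1 held under all 10 alternatives run, with the same direction. Leaving out 1 library gave between 3 and 4 of the enzyme genes called higher and between 1 and 2 lower, between 262 and 451 genes called higher and between 119 and 295 lower over all genes, between 0 and 3 partner genes higher, and a median log2 fold change of the enzyme genes between 0.00926 (without TYMP replicate 2) and 0.16. That median was 0.18 with upper-quartile scaling. With genes of at least 1 read, 288 genes were called lower over all genes, against 177. The replicate numbers of the titles were also used as a block. Deviations of libraries with the same number correlated at 0.336 over 10122 genes, but 2 pairs cannot show that the numbers pair the libraries. Under the replicate block, 980 genes were called higher and 1044 lower over all genes, against 301 and 177. Of the enzyme genes, 5 were then called higher (GSTK1 and CYP2S1 were added) and 3 lower (UGT8 and CYP27B1 were added), of the partner genes 6 higher and 1 lower, and the median was 0.12. The cause was not tested. The first 10 genes by FPKM were also the first 10 by CPM. Genes such as CYP4F11, CYP4B1, GSTA4 and CYP26A1 had under 130 reads over 4 libraries. With 2 libraries a group, their standard errors were 0.368 or more on the log2 scale. Their log2 fold changes of 0.98, 1.09, 0.90 and 1.11, in that order, were not called. Changes of that size can therefore go uncalled in such genes.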

Other observations

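Some genes close to these families fall outside the rule by which the members were chosen. GSTT2B, a near-identical copy of GSTT2 that conjugates glutathione to sulfate esters, had 105 and 68 reads in the TYMP libraries and 73 and 111 in the NC libraries, while GSTT2 itself had 0 and 0 reads in the TYMP libraries and 1 and 1 in the NC libraries. The share of stretches of 50 bases that GSTT2 has in common with GSTT2B was 81.1%.

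AHR and UGT1A1 were lower in replicate 1 than in replicate 2 of both groups. AHR had 902 reads in TYMP replicate 1 and 771 in NC replicate 1, and 1276 reads in TYMP replicate 2 and 1336 in NC replicate 2. UGT1A1 had 126 reads in TYMP replicate 1 and 164 in NC replicate 1, and 190 reads in TYMP replicate 2 and 207 in NC replicate 2. These 2 genes were chosen after their values were seen.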
